A study of Mus musculus with 28 samples.

Results

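Bulk RNA sequencing was used to compare the outflow vein of early arteriovenous fistulas (AVFs) with the contralateral jugular vein of the mouse. The libraries were chosen by their group labels, and the comparison held 15 libraries (8 early AVFs and 7 contralateral veins) of the 25 bulk libraries and 28 samples of the series. All mice were C57BL/6 animals that had undergone 5/6 nephrectomy (removal of most of the kidney mass) before the fistula was made, so reduced kidney function was common to both groups. In the fistula, the cut end of the jugular vein was sewn onto the side wall of the carotid artery, the early group was labelled day 3 after this operation, and the contralateral vein of the other side of the neck was not operated on. Surgical injury and arterial flow were therefore present together in each early AVF and cannot be told apart. All early AVFs shared the same day label, but the study describes their harvest as an average time with a spread. The early AVFs are therefore not read as a group of a single day. The labels did not give the actual day of each early AVF, and the contralateral veins carried no day label. Each library came from 1 vessel. By their labels, the veins came from 5 female and 2 male mice and the early AVFs from 3 female and 5 male mice. The other 10 bulk libraries (5 mid and 5 late AVFs) entered the fit to share its estimate of the spread between libraries. They also entered the mean count by which genes were kept and the scaling of library sizes. Fewer genes were called with the 15 libraries fitted alone, as given at the end. The question was which genes and gene groups differed between the vein and the AVF in the first days of remodeling.

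The wall of a vein holds an endothelial lining, a thin layer of contractile smooth muscle and an adventitia of fibroblasts, resident macrophages, nerves and fat. Smooth muscle tone depends on actin and myosin filaments, on calcium and potassium channels, and on cyclic nucleotides that answer to nitric oxide. When a vein is joined to an artery it is exposed to arterial pressure and fast flow, and the injured wall recruits neutrophils and monocytes through chemokines, while fibroblasts take on an activated, matrix-producing state. A fistula must widen and thicken before it can be used for hemodialysis, and many fail to do so.

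The libraries of the 2 groups differed in quality as well as in origin. Total counts ranged from 20254173 to 29913427 in contralateral veins and from 23676215 to 67457501 in early AVFs. The share of tested genes without a single read was 2.86% to 22.5% in veins and 0.11% to 4.7% in early AVFs, and 4 veins (28, 31, 34 and 632) lacked reads for more than 10% of them. The median rank correlation of a library with the others of its group was 0.587 to 0.741 in veins and 0.801 to 0.935 in early AVFs, so the veins were the more variable group, and contralateral vein 28 stood farthest from the rest on the first principal component. In 13 of the 15 libraries, *Xist* and the Y-linked genes matched the labelled sex. They went against the label in early AVF 5 (labelled male, *Xist* 205 CPM and *Ddx3y* 0 CPM) and early AVF 10 (labelled female, *Xist* 0.394 CPM and *Ddx3y* 130.5 CPM), where CPM is read counts on a per-million basis, with library sizes scaled by the trimmed mean of M values (TMM). Early AVFs 1, 7 and 10 held the most transcripts of nerve, muscle or parathyroid tissue. The totals over all genes, and the counts of lists that moved most, are also given without such libraries below.

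**Figure D1:**
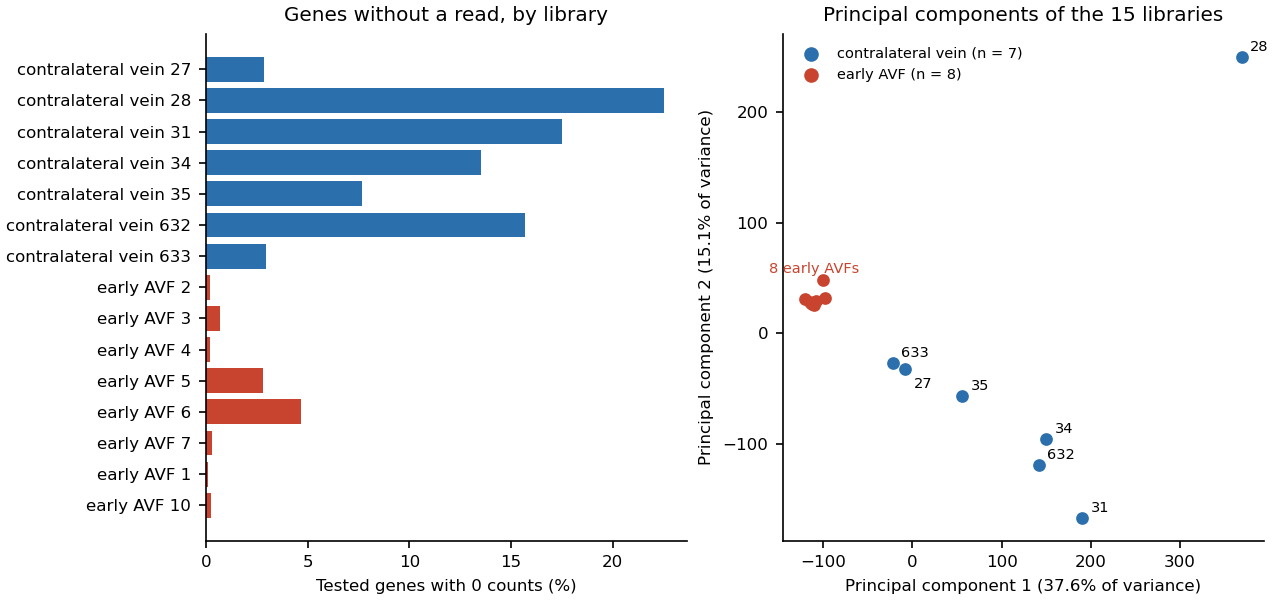
Left, share of tested genes with 0 counts (%) in each of the 7 contralateral veins (blue) and 8 early AVFs (red). Right, the first 2 principal components of log2 CPM, with percent of variance on the axes: the 8 early AVFs lie together, and contralateral vein 28 lies apart from the other veins.

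Of 12673 genes tested, 782 were higher in early AVFs (6.17%) and 817 were lower (6.45%), at an adjusted *p* under 0.01 and at least 2-fold by the quasi-likelihood test of edgeR with Benjamini-Hochberg adjustment. The median log2 fold change (log2FC) over all tested genes was −0.007. In 567 genes (4.47%) every early AVF lay above every vein, and in 297 genes (2.34%) every early AVF lay below every vein. Low counts set the scale of the increases. Of the 782 genes that rose, 398 had no read in at least 1 vein and 25 had none in any of the 7. Among all 12673 genes tested, 4760 had no read in at least 1 vein. Of the 817 genes that fell, 784 were detected in every vein. A gene needs reads in veins to be called lower, so this was largely set in advance. For a gene without reads in some veins the fitted fold change depends on a constant added by the software, so such genes are described below by their CPM and adjusted *p*. In bulk tissue, fewer cells of a type and less RNA per cell cannot be told apart, and this holds for each result below. Leaving out contralateral veins 28, 31, 34 and 632 gave 1187 genes higher and 1086 lower. Leaving out early AVFs 5 and 6 gave 536 higher and 623 lower, leaving out early AVFs 5 and 10 gave 709 higher and 618 lower, and leaving out early AVFs 1, 7 and 10 gave 742 higher and 574 lower.

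**Figure D2:**
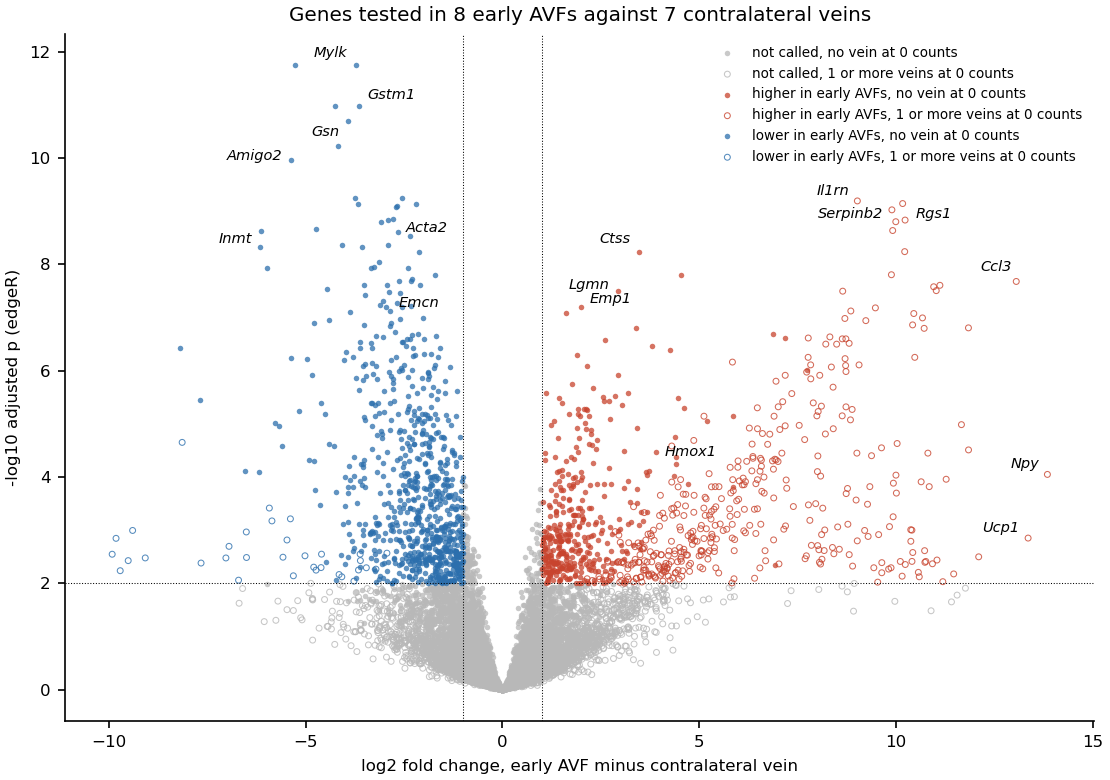
Fitted log2 fold change (early AVF minus contralateral vein) against −log10 adjusted *p* for the 12673 genes tested. Open circles mark genes with 0 counts in 1 or more veins, whose fitted fold changes are not bounds, and dotted lines mark the thresholds. Open circles hold 398 of the 782 higher genes and 4760 of all genes tested. They hold few of the 817 lower genes, which need reads in veins to be called.

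The contractile apparatus of smooth muscle was lower in early AVFs. Of 16 contractile genes tested, 14 fell and 1 rose (*Mylk4*, a kinase of striated muscle), with a median log2FC of −2.56. Their summed level was 19120 to 40340 CPM in veins (median 23300) and 2418 to 5489 CPM in early AVFs (median 3675), without overlap. Their promoters are of interest because serum response factor binds CArG boxes in front of many contractile genes. In the 250 bases before the transcription start (RefSeq, GRCm38.p6), a CArG box on either strand was present in 1 of the 13 contractile genes with a promoter sequence (7.69%). It was present in 1.47% of all 32851 promoters, and in 1.45% of all tested genes and 2.58% of the genes that fell. With 1 gene of 13, no difference from these shares can be read. That gene was *Myl9*, encoding the regulatory light chain of myosin, whose promoter on the plus strand (chr2:156775214-156775463) is shown with the CArG box in capitals.
Myl9: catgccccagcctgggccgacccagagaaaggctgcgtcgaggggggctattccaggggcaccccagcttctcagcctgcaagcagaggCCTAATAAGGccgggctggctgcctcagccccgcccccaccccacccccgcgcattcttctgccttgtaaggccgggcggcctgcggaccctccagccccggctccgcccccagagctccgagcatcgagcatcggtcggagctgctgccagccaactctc

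*Myl9* ranged from 3335 to 6684 CPM in veins (median 4714) and from 285 to 1414 CPM in early AVFs (median 486), a log2FC of −2.93 (SE 0.28, adjusted *p* = 2.49e-08). *Mylk*, the kinase that phosphorylates this light chain, had the smallest *p* of the genes named here. It ranged from 911 to 1642 CPM in veins (median 1076) and from 62.9 to 121 CPM in early AVFs (median 79.9), a log2FC of −3.73 (SE 0.20, adjusted *p* = 1.78e-12). The lowest vein thus held several times the *Mylk* level of the highest early AVF. *Actg2*, an actin of visceral and vascular smooth muscle, fell by 3.74 in log2FC (SE 0.28, adjusted *p* = 5.69e-10), and *Acta2*, the smooth muscle alpha actin, fell by 2.66 (SE 0.22, adjusted *p* = 2.44e-09). *Acta2* nevertheless remained at 854 to 2260 CPM in early AVFs, against 6263 to 14280 CPM in veins. Proteins that shape the actin filament but are not in the contractile list fell as well. *Gsn* (gelsolin, which severs filaments) is counted below among resting fibroblast genes. It went from a median of 9820 CPM in veins to 588 CPM in early AVFs (log2FC −3.93, SE 0.25, adjusted *p* = 2.05e-11). *Dstn* (destrin) went from 1501 to 367 CPM (log2FC −2.19, SE 0.17, adjusted *p* = 7.21e-10). Neither gene overlapped between the groups, which was a condition of their choice.

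The machinery that sets vascular tone fell in part. Of 12 genes of smooth muscle ion handling, 4 fell and 1 rose (median log2FC −1.46), and of 16 vasoactive receptors and cyclic nucleotide enzymes, 7 fell and none rose (median −1.37). Both subunits of soluble guanylate cyclase, the nitric oxide receptor, were among those that fell. *Gucy1a1* ranged from 172 to 585 CPM in veins (median 416) and from 6.65 to 60.02 CPM in early AVFs (median 33.8; log2FC −3.51, SE 0.34, adjusted *p* = 2.48e-08). Its partner *Gucy1b1* fell by 2.52 in log2FC (SE 0.48, adjusted *p* = 0.000377), with overlap between groups, since 1 vein lay at 4.42 CPM. *Kcnj8* and *Abcc9* encode the pore and the regulatory subunit of the ATP-sensitive potassium channel of vascular smooth muscle. They fell by 1.83 in log2FC (SE 0.29, adjusted *p* = 3.56e-05) and 1.79 (SE 0.31, adjusted *p* = 9.99e-05), and in both some early AVFs overlapped the veins. *Itpr1*, a calcium release channel, *Plcb4*, the phospholipase that feeds it, *Htr2b*, a serotonin receptor, and *Pde3a*, which degrades cyclic AMP, fell without overlap, by 1.64, 2.55, 3.62 and 2.28 in log2FC (adjusted *p* = 2.39e-06, 5.69e-10, 2.91e-07 and 3.77e-07). Among 13 transcriptional regulators of smooth muscle, 3 fell and none rose. These included *Mrtfb*, a cofactor of serum response factor, which fell by 1.95 in log2FC (SE 0.32, adjusted *p* = 5.64e-05) from a vein median of 152 CPM to an early AVF median of 33.4 CPM, with overlap. *Srf*, encoding serum response factor itself, did not pass the test (log2FC 0.015, SE 0.58, adjusted *p* = 0.991). Nor did *Myocd*, at 0 to 38.4 CPM in veins and 3.11 to 17.8 CPM in early AVFs (adjusted *p* = 0.736).

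Endothelial genes were lower across their functions. Of 16 pan-endothelial genes, 11 fell and none rose (median log2FC −1.54), and of 15 genes of flow response and anticoagulation, 8 fell and none rose (median −1.22). The summed pan-endothelial level was 2940 to 6092 CPM in veins (median 3839) and 537.7 to 1071 CPM in early AVFs (median 869.1). *Ptprb*, a phosphatase that restrains the angiopoietin receptor, ranged from 242 to 864 CPM in veins (median 606) and from 29.6 to 107 CPM in early AVFs (median 69.6; log2FC −3.09, SE 0.25, adjusted *p* = 1.58e-09). *Emcn*, a sialomucin of venous and capillary endothelium, fell from 240.4 to 865 CPM in veins to 21.4 to 102 CPM in early AVFs (medians 359.7 and 60.9; log2FC −2.85, SE 0.29, adjusted *p* = 7.65e-08). All 8 early AVFs lay below all 7 veins for both genes, which for *Ptprb* was a condition of its choice. The secreted *Egfl7* and *Mmrn2* fell by 2.82 and 2.61 in log2FC (adjusted *p* = 1.26e-07 and 2.1e-08), and *S1pr1*, the sphingosine 1-phosphate receptor that stabilizes junctions, by 1.73 (adjusted *p* = 8.97e-07), each without overlap. *Calcrl* and *Ramp2*, which together form the adrenomedullin receptor, fell by 2.29 and 1.53 in log2FC (adjusted *p* = 1.93e-06 and 7.6e-05). *Cdh5*, the cadherin of endothelial junctions, did not pass the test, at 78.9 to 217 CPM in veins and 33.6 to 137 CPM in early AVFs (log2FC −0.81, SE 0.31, adjusted *p* = 0.0603).

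Genes of venous and of arterial identity were both among those lower. Of 15 venous and arterial identity genes, 4 fell and none rose, and the median log2FC was 0.01. Of venous genes, those that fell were *Nr2f2* (COUP-TFII, the transcription factor that keeps endothelium venous), from a median of 292 CPM in veins to 48.9 CPM in early AVFs (log2FC −2.68, SE 0.27, adjusted *p* = 5.42e-08), and *Ephb4*, the venous ephrin receptor, from 108 to 19.9 CPM (log2FC −2.43, SE 0.34, adjusted *p* = 5.92e-06). Neither overlapped between groups. The arterial genes that fell were *Bmx*, a kinase, from a median of 61.33 to 6.99 CPM (log2FC −3.02, SE 0.57, adjusted *p* = 0.000325), and *Hey2*, a target of Notch, from 31.29 to 7.24 CPM (log2FC −2.15, SE 0.54, adjusted *p* = 0.00461), both with overlap. The call of *Hey2* was lost without contralateral vein 632 or early AVF 1, 2, 3, 5 or 6, with an adjusted *p* of 0.000375 to 0.0152 when 1 library was left out in turn. Of 13 Notch pathway genes, 4 fell, among them *Notch3*, the receptor of mural cells, from a median of 63.8 to 13.9 CPM (log2FC −2.29, SE 0.34, adjusted *p* = 1.93e-05). Of 10 genes of caveolae, the membrane pits of endothelial and smooth muscle cells, 4 fell and 1 rose (*Cavin4*, a form found in striated muscle). *Cavin1*, the coat protein, fell from 863 to 1855 CPM in veins to 188 to 382 CPM in early AVFs (medians 1231 and 317; log2FC −2.13, SE 0.19, adjusted *p* = 5.78e-09), and *Cav1*, the structural caveolin, fell by 1.47 (SE 0.19, adjusted *p* = 1.58e-06).

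Fibroblast genes moved in both directions according to the state they mark. Of 16 resting fibroblast genes, 12 fell and none rose (median log2FC −2.47), and their sum was 12170 to 22610 CPM in veins against 1101 to 5332 CPM in early AVFs. Of 15 activated fibroblast genes, 9 rose and none fell (median 2.07), and their sum was 751.4 to 1974 CPM in veins against 3417 to 8547 CPM in early AVFs. *Inmt*, an enzyme that methylates indoles, ranged from 223 to 897 CPM in veins (median 659) and from 1.93 to 20.8 CPM in early AVFs (median 7.1; log2FC −6.15, SE 0.54, adjusted *p* = 4.76e-09). *Dpep1*, a membrane dipeptidase, fell by 2.85 in log2FC (SE 0.42, adjusted *p* = 1.33e-05). In contrast, *Tnc*, encoding the provisional matrix protein tenascin C, rose from a vein median of 99.7 CPM to an early AVF median of 381 CPM (log2FC 2.04, SE 0.41, adjusted *p* = 0.000624), with ranges that overlapped (34.7 to 214 CPM and 159 to 644 CPM). *Cthrc1*, a secreted protein of activated fibroblasts, lay at 0 to 73 CPM in veins (median 15) and 64.4 to 1186 CPM in early AVFs (median 604; adjusted *p* = 0.000211).

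Few collagen genes passed the test. Of 14 fibrillar and fibril-associated collagen genes, 2 rose and none fell, and the median log2FC was 0.05. *Col1a1* lay at 441 to 4358 CPM in veins (median 2205) and 246 to 5729 CPM in early AVFs (median 3513; log2FC 0.18, SE 0.47, adjusted *p* = 0.831), a difference smaller than the spread within either group. *Col3a1* had a log2FC of −0.08 (SE 0.41, adjusted *p* = 0.92). Of 10 leucine-rich proteoglycans, which control the width and spacing of collagen fibrils, 6 fell and none rose (median −1.89). They included *Lum* (lumican), from a vein median of 2310 CPM to an early AVF median of 648 CPM (log2FC −1.82, SE 0.31, adjusted *p* = 0.000113), and *Podn* (podocan), from 252 to 8.95 CPM (log2FC −4.62, SE 0.62, adjusted *p* = 4.09e-06). Among 17 matrix proteases and inhibitors, 6 rose and 2 fell, and without early AVFs 5 and 6 these counts were 4 and 2. *Mmp12*, the macrophage elastase, lay at 0 to 25.3 CPM in veins and 49.98 to 353 CPM in early AVFs (medians 0.482 and 146; adjusted *p* = 0.000152), whereas the protease inhibitor *Timp2* fell by 2.22 in log2FC (SE 0.26, adjusted *p* = 5.12e-07).

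Secreted growth factors and their modulators moved in both directions. Of 20 genes of the TGF-beta superfamily, 6 fell and 2 rose. *Gdf10*, a ligand of this family, fell from 362 to 1010 CPM in veins to 25.2 to 105 CPM in early AVFs (medians 550.1 and 57.4; log2FC −3.26, SE 0.30, adjusted *p* = 1.11e-08). *Bmp4* and its secreted antagonist *Grem1* both fell, by 3.17 in log2FC (SE 0.42, adjusted *p* = 4.03e-06) and 3.46 (SE 0.43, adjusted *p* = 1.26e-06). Of 19 Wnt modulators and receptors, 4 fell and 3 rose, and the 3 that rose were nearly absent from veins. These were the secreted Wnt antagonists *Frzb* (0 to 0.0876 CPM in veins, 9.59 to 77.5 CPM in early AVFs, adjusted *p* = 7.21e-10) and *Wif1* (0 to 0.158 and 4.25 to 35.8 CPM, adjusted *p* = 5.95e-07), and *Lgr5*, a receptor for R-spondins (0 to 0.316 and 0 to 42.4 CPM, adjusted *p* = 0.000163). Only *Lgr5* of these overlapped between groups, and for *Frzb* a lack of overlap was a condition of its choice. Of 22 ligands of receptor tyrosine kinases, 4 fell and 1 rose. The gene that rose was *Nrg1*, a ligand of ErbB receptors, at 0 to 1.1 CPM in veins and 10.6 to 30.3 CPM in early AVFs (adjusted *p* = 7.15e-05), while *Pdgfd* and *Fgf7*, mitogens made by mural cells and fibroblasts, fell by 2.40 in log2FC (SE 0.33, adjusted *p* = 5.33e-06) and 2.18 (SE 0.38, adjusted *p* = 0.000123).

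Genes of infiltrating myeloid cells were widely higher. Of 18 genes of monocytes and inflammatory macrophages, 15 rose and none fell (median log2FC 3.85), and of 15 neutrophil genes, 10 rose and none fell (median 5.42). The summed monocyte and macrophage level was 558.8 to 1104 CPM in veins (median 838.6) and 3017 to 17040 CPM in early AVFs (median 5243), and the neutrophil sum was 53.28 to 298.5 CPM in veins and 379.7 to 5112 CPM in early AVFs. Without early AVFs 5 and 6, which held the highest sums, 13 and 8 of these genes rose. *Ly6c2*, a marker of inflammatory monocytes, lay at 0.386 to 4.56 CPM in veins (median 0.613) and 52.9 to 899 CPM in early AVFs (median 116; log2FC 7.18, SE 0.80, adjusted *p* = 2.48e-07), and its log2FC was 6.40 without early AVF 6. *Fpr1*, the neutrophil receptor for formylated peptides, went from at most 0.475 CPM in veins to 28.5 to 203 CPM in early AVFs (adjusted *p* = 6.61e-08). *S100a8*, a calcium-binding alarmin, rose from a median of 12.8 CPM to 663 CPM (log2FC 5.86, SE 1.04, adjusted *p* = 0.000153). *Lgals3* (galectin 3) rose from 58.4 to 211 CPM in veins to 684 to 5596 CPM in early AVFs (log2FC 3.80, SE 0.43, adjusted *p* = 3.45e-07), and *Trem2*, a lipid receptor of macrophages, from at most 6.52 CPM to at least 79.2 CPM (adjusted *p* = 1.22e-06). None of these 5 genes overlapped between groups.

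Some markers of the macrophages that reside in the adventitia were lower. Of 13 resident macrophage genes, 5 fell and none rose (median log2FC −1.07). The lectins *Cd209f* and *Cd209d* fell by 4.47 in log2FC (SE 0.43, adjusted *p* = 2.86e-08) and 5.78 (SE 0.83, adjusted *p* = 9.65e-06), the latter by 6.55 without early AVF 7. *Mgl2*, another lectin of these cells, fell by 3.80 in log2FC (SE 0.68, adjusted *p* = 0.000156). *Retnla*, a secreted product of alternatively activated macrophages and of adventitial cells, ranged from 1234 to 4933 CPM in veins (median 2197) and from 6.73 to 76.0 CPM in early AVFs (median 36.8), a log2FC of −6.13 (SE 0.51, adjusted *p* = 2.32e-09). No early AVF came near the lowest vein. The other 8 genes of the list did not pass the test, among them the resident macrophage markers *Folr2* (log2FC 0.45), *Cd163* (−0.48) and *Cbr2* (1.05), and *Mrc1* (0.39).

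Chemokines were widely higher, with 14 of 28 higher and 1 lower (median log2FC 2.84). The promoters of *Cxcl1*, *Cxcl2* and *Cxcl3*, neighboring genes that encode neutrophil chemoattractants, are shown because each holds the same palindromic NF-kappa B motif, in capitals, within the 250 bases before the start on the plus strand of chromosome 5 (RefSeq, GRCm38.p6, chr5:90890995-90891244, chr5:90903649-90903898 and chr5:90785851-90786100). The motif, searched on both strands, was present in 5 of the 20 chemokine genes with a promoter sequence (25%), against 7.25% of all promoters, 10.5% of those of all tested genes and 12.0% of those of the genes that rose.
Cxcl1: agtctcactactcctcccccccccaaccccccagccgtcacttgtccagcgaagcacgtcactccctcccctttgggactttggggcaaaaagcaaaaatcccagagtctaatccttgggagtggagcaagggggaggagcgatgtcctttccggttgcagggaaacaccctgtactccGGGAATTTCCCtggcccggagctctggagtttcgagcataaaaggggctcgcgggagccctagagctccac
Cxcl2: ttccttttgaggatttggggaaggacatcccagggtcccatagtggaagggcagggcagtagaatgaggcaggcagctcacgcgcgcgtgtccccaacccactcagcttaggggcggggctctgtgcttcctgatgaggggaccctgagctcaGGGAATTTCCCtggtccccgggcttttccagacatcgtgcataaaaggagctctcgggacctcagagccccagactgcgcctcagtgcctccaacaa
Cxcl3: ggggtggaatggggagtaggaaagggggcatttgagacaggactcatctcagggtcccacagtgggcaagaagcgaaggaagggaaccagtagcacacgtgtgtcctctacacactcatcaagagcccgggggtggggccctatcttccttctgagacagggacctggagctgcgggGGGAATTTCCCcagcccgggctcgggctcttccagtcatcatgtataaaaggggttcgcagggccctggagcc

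*Cxcl1* lay at 0 to 10.3 CPM in veins (median 0.982) and 14.4 to 164 CPM in early AVFs (median 60.3; adjusted *p* = 0.000477), and *Cxcl2* at 0 to 1.58 CPM and 9.04 to 185 CPM (medians 0 and 46.5; adjusted *p* = 1.98e-05). *Ccl3*, which attracts monocytes, had no read in any vein and 8.43 to 98.6 CPM in every early AVF, at least 1978-fold higher against a floor of 3 counts over the 7 veins (adjusted *p* = 2.1e-08). *Ccl9* rose from 77.5 to 355 CPM in veins to 547 to 2577 CPM in early AVFs (log2FC 2.71, SE 0.36, adjusted *p* = 3.72e-06). All 4 of these chemokines were without overlap, which for *Ccl3* was a condition of its choice. *Ccl22*, a ligand of regulatory T cells, lay at 0 to 0.21 CPM in veins and 1.02 to 20.6 CPM in early AVFs (adjusted *p* = 4.66e-06). The single chemokine that fell was *Ccl11* (eotaxin, which attracts eosinophils and is made by resting fibroblasts), from a median of 290.2 CPM in veins to 50.6 CPM in early AVFs (log2FC −3.04, SE 0.34, adjusted *p* = 2.32e-07).

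Inflammatory mediators and inhibitors of them were both higher. Of 16 genes of interleukin 1 and the inflammasome, 6 rose and none fell. *Il1rn*, the interleukin 1 receptor antagonist, had the smallest *p* of the genes named here that rose, at 0 to 0.947 CPM in veins (median 0.227) and 81.2 to 369.6 CPM in early AVFs (median 112; adjusted *p* = 6.43e-10). *Il1a*, an agonist of the same receptor, had no read in any vein and 2.39 to 17.4 CPM in early AVFs (at least 390.7-fold higher, adjusted *p* = 1.6e-07). Agonist and antagonist were thus both above every vein in each early AVF, which for *Il1rn* was a condition of its choice. *Acod1*, which makes the immunomodulatory metabolite itaconate, lay at 0 to 0.158 CPM in veins and 16.8 to 100.5 CPM in early AVFs (adjusted *p* = 1.58e-09). *Tnf* and *Osm*, cytokines of activated myeloid cells, reached 3.27 to 27.6 CPM and 3.99 to 17.0 CPM in early AVFs against at most 0.823 and 1.51 CPM in veins (adjusted *p* = 0.000187 and 0.0012). The receptor chains *Il6st* and *Lifr*, through which oncostatin M and related cytokines signal, fell by 1.77 and 1.49 in log2FC (SE 0.23 and 0.22, adjusted *p* = 2.05e-06 and 1.82e-05). *Havcr2*, an immune checkpoint receptor, *Rgs1*, which damps chemokine receptor signaling, and *Sirpb1a*, a myeloid receptor, were near 0 in every vein (at most 0.0791, 0.0783 and 0.0791 CPM) and present in all early AVFs (at least 7.31, 10.1 and 9.29 CPM; adjusted *p* = 2.32e-09, 1.47e-09 and 5.78e-09). Of 20 targets and regulators of NF-kappa B, 2 rose, and of 18 interferon-stimulated genes, 3 rose, with none lower in either list. They included *Zbp1*, a nucleic acid sensor (log2FC 2.34, adjusted *p* = 0.00577), and *Oasl2* (log2FC 1.45, adjusted *p* = 0.00578). Their calls rested on single libraries. That of *Zbp1* was lost without contralateral vein 35 or early AVF 4 or 6, and that of *Oasl2* without contralateral vein 34, 35, 632 or 633 or early AVF 2 or 4. With 1 library left out in turn, their adjusted *p* reached 0.0143 and 0.0158.

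Receptors and degradative enzymes of phagocytes rose. Of 15 Toll-like and Fc receptor genes, 8 rose and none fell, and 5 rose without early AVFs 5 and 6. *Fcer1g*, the signaling chain shared by Fc receptors, ranged from 90.8 to 310.1 CPM in veins and from 598 to 5345 CPM in early AVFs (log2FC 3.19, SE 0.42, adjusted *p* = 2.66e-06), and *Fcgr3* rose by 1.91 (SE 0.27, adjusted *p* = 6.63e-06). *Tlr8*, a sensor of single-stranded RNA, lay at 0 to 0.435 and 6.35 to 33.4 CPM (adjusted *p* = 1.43e-06). Of 16 lysosomal genes, 4 rose and none fell. The cysteine protease *Ctss* rose from 116 to 322 CPM in veins (median 268) to 1370 to 5758 CPM in early AVFs (median 2096; log2FC 3.48, SE 0.31, adjusted *p* = 5.78e-09), *Lgmn* (legumain) from a median of 123 to 799 CPM (log2FC 2.93, SE 0.29, adjusted *p* = 3.15e-08), and *Ctsd* and *Ctsb* by 1.90 and 1.52 (SE 0.22 and 0.20, adjusted *p* = 5.07e-07 and 4.05e-06). No vein overlapped an early AVF in these 4 proteases, which for *Ctss* and *Lgmn* was a condition of their choice. *Alox5ap*, needed for leukotriene synthesis, rose by 2.73 in log2FC (SE 0.39, adjusted *p* = 8.24e-06), while *Ptgs1*, the constitutive cyclooxygenase, fell by 1.84 (SE 0.28, adjusted *p* = 1.79e-05).

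Complement genes moved in both directions. Of 19 tested, 6 rose and 10 fell, and without early AVFs 5 and 6 the counts were 6 and 6. The 3 chains of C1q, which starts the classical pathway, 2 receptors and the stabilizer of the alternative pathway rose. *C3ar1*, the C3a receptor, lay at 0.187 to 56.4 CPM in veins (median 32.2) and 362 to 1138 CPM in early AVFs (median 569; log2FC 4.60, SE 0.63, adjusted *p* = 5.15e-06), *C5ar1*, the C5a receptor, at 0 to 145.3 and 222.9 to 730.2 CPM (adjusted *p* = 0.001697), and *Cfp* (properdin) at 83.89 to 200.1 and 202.2 to 884.5 CPM (log2FC 1.82, SE 0.29, adjusted *p* = 4.60e-05). Proteases of the classical pathway and an inhibitor of them fell. *Serping1*, the C1 inhibitor, fell by 2.17 in log2FC (SE 0.37, adjusted *p* = 9.53e-05), the C1 proteases *C1ra* and *C1s1* by 2.51 and 2.50 (adjusted *p* = 1.38e-05 and 8.34e-05), and *C2* by 3.48 (SE 0.49, adjusted *p* = 8.4e-06). Each of the 7 genes named here was without overlap.

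**Figure D3:**
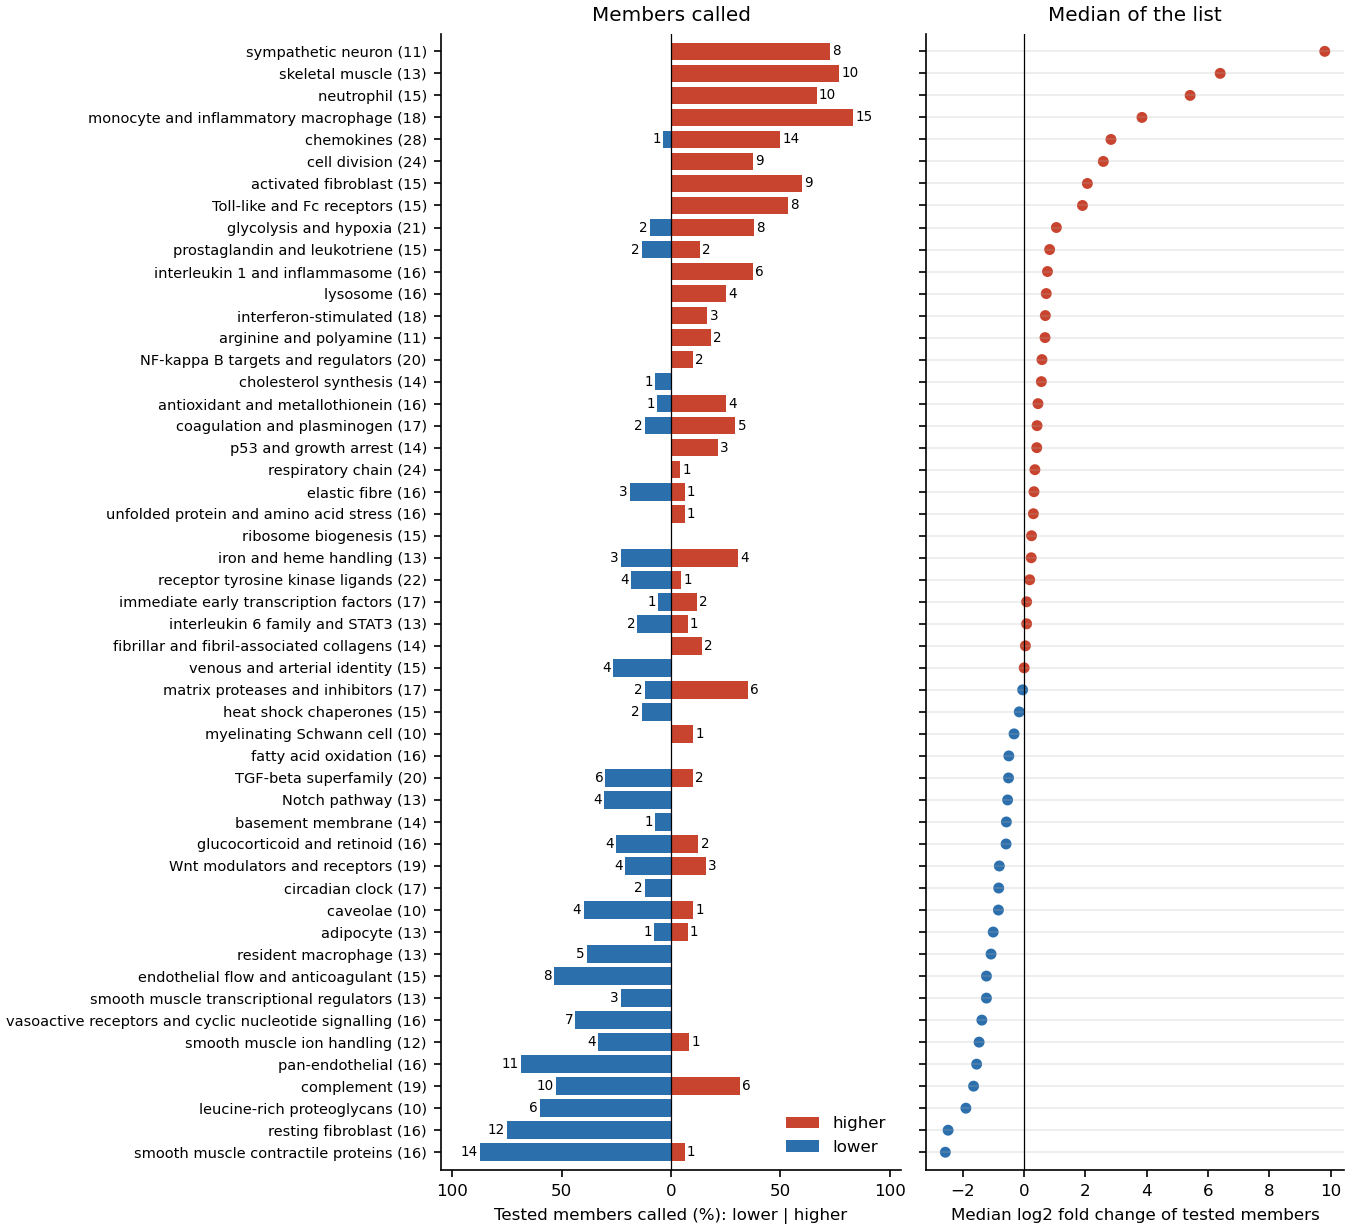
Left, percent of tested members of each gene list with 10 or more tested members called higher (red, right) or lower (blue, left) in early AVFs, with the number called beside the bar and the number tested in parentheses. Right, median log2 fold change of the tested members: among these lists, smooth muscle contractile genes lie lowest (−2.56) and sympathetic neuron genes highest (9.81), and the latter rest on few libraries.

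Genes of clotting and fibrinolysis moved in both directions. Of 17 tested, 5 rose and 2 fell, and 3 rose without early AVFs 5 and 6. *Serpinb2* (plasminogen activator inhibitor 2) lay at 0 to 0.237 CPM in veins (median 0.0701) and 39.1 to 274 CPM in early AVFs (median 67.2; adjusted *p* = 9.46e-10). *Plaur*, the urokinase receptor, rose from a median of 34.2 to 147 CPM (log2FC 2.23, SE 0.39, adjusted *p* = 0.00014), and *Anxa2*, which assembles plasminogen with its activator on the cell surface, from 1100 to 2020 CPM (log2FC 1.08, SE 0.17, adjusted *p* = 4.89e-05). *F3* (tissue factor, which starts clotting) fell from a median of 453 to 77.9 CPM (log2FC −2.55, SE 0.40, adjusted *p* = 2.83e-05). Of 7 platelet genes, 2 rose. *Pf4* (platelet factor 4, also made by some macrophages) ranged from 164 to 444 CPM in veins and from 293 to 11670 CPM in early AVFs (log2FC 3.41, SE 0.64, adjusted *p* = 0.000308). The platelet sum reached 12780 CPM in early AVF 6 and 9461 CPM in early AVF 5, against a group median of 1900 CPM, and these libraries also held the highest neutrophil and monocyte sums. The part of blood or thrombus in these values was not tested.

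Genes of glycolysis were higher in early AVFs. Of 21 genes of glycolysis and hypoxia, 8 rose and 2 fell (median log2FC 1.06), with sums of 3795 to 4964 CPM in veins and 5309 to 13250 CPM in early AVFs. Of 24 respiratory chain genes 1 rose (*Atp5g1*) and none fell, while fatty acid oxidation genes are given below. The motif ACGTG, the core bound by hypoxia-inducible factors and contained in the E-box CACGTG, was present on either strand in the promoters of 12 of 20 glycolysis and hypoxia genes (60%), against 16.6% of all promoters and 24.7% of those of all tested genes. Among all genes that rose the share was 22.1%. Within the list the motif did not follow the call. It was present in genes that were not called, such as *Hk2* and *Pgk1*, and absent from some that rose, such as *Gapdh* and *Eno1*. The promoters of *Ldha* (chr7:46845554-46845803) and *Slc16a3* (chr11:120948817-120949066), both on the plus strand of GRCm38.p6 in RefSeq, are shown with the motif in capitals because these genes act at the end of the pathway.
Ldha: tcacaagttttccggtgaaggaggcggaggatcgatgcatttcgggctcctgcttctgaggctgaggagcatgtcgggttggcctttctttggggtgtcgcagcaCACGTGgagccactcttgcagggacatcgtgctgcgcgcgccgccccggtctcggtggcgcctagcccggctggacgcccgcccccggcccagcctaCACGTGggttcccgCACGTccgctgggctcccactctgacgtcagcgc
Slc16a3: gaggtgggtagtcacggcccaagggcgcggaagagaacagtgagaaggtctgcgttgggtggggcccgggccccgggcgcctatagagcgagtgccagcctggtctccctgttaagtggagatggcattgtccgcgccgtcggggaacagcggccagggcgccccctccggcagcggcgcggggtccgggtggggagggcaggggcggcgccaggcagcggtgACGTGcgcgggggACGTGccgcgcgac

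*Ldha*, which turns pyruvate into lactate, rose from 454 to 1041 CPM in veins (median 632) to 1128 to 2292 CPM in early AVFs (median 1642; log2FC 1.31, SE 0.19, adjusted *p* = 9.03e-06), and *Slc16a3* (MCT4, which exports lactate) from 0 to 6 CPM to 26.4 to 128 CPM (adjusted *p* = 0.000154). *Pkm*, the pyruvate kinase, rose by 1.42 in log2FC (SE 0.21, adjusted *p* = 1.89e-05), with overlap between groups. *Hif1a*, the oxygen-regulated transcription factor, rose by 1.08 in log2FC (SE 0.24, adjusted *p* = 0.00136), and its call was lost without contralateral vein 34 or 35, where its change fell under 2-fold. *Slc2a1*, the glucose transporter GLUT1, did not pass the test (log2FC 1.63, SE 0.56, adjusted *p* = 0.03695), and *Pfkp*, the platelet-type phosphofructokinase, fell from a median of 484 to 99.0 CPM (log2FC −2.08, SE 0.20, adjusted *p* = 2.49e-08). Among 13 genes of iron and heme handling, 4 rose and 3 fell. *Hmox1*, which degrades heme, went from 0.5 to 52.3 CPM in veins (median 34.0) to 129.9 to 549.8 CPM in early AVFs (median 384; log2FC 3.90, SE 0.61, adjusted *p* = 3.41e-05), and the ferritin light chain *Ftl1* from a median of 843 to 2538 CPM (log2FC 2.19, SE 0.31, adjusted *p* = 7.05e-06), whereas *Trf* (transferrin) fell by 2.15 (SE 0.30, adjusted *p* = 7.84e-06). Of 11 arginine and polyamine genes, 2 rose, and both were arginases. *Arg1* lay at 0 to 18.03 CPM in veins (median 0.0625) and 36.3 to 2989 CPM in early AVFs (median 418; adjusted *p* = 0.00036), and *Arg2* at 0 to 0.586 and 3.74 to 25.6 CPM (adjusted *p* = 5e-05).

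Cell division genes were higher, with counts that depended on the libraries used. Of 24 tested, 9 rose and none fell (median log2FC 2.59), 16 rose when contralateral veins 28, 31, 34 and 632 were left out, and 6 rose when early AVFs 5 and 6 were left out. The sum of the list was 172.5 to 516.4 CPM in veins and 737.2 to 1790 CPM in early AVFs, without overlap. The CCAAT motif, bound by the factor NF-Y in many genes of the cell cycle, was present on either strand in the promoters of 19 of 21 of these genes (90.5%), against 33.8% of all promoters and 40.5% of those of all tested genes. Among all genes that rose the share was 37.8%. Within the list it was present in genes that were not called, such as *Mki67* and *Pcna*, and absent from *Birc5*, which rose. The promoters of *Cdk1* (chr10:69352913-69353162, minus strand) and *Kif11* (chr19:37376132-37376381, plus strand) are shown from RefSeq, GRCm38.p6, with the motif or its complement ATTGG in capitals.
Cdk1: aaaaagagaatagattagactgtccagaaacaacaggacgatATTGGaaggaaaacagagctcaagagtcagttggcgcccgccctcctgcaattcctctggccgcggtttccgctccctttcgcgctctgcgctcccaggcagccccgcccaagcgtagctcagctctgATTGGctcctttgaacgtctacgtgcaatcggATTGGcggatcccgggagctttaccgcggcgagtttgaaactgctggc
Kif11: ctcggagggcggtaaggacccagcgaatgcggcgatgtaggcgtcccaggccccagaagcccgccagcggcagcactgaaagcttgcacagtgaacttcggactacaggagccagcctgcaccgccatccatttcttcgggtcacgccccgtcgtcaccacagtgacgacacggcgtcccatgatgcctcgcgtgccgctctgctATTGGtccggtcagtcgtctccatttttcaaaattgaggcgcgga

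*Cdk1*, the kinase that drives entry into mitosis, lay at 0 to 17.5 CPM in veins (median 2) and 46.9 to 149 CPM in early AVFs (median 89.8; adjusted *p* = 0.000532). *Kif11*, a motor of the mitotic spindle, lay at 0 to 2.28 and 12.1 to 45.7 CPM (adjusted *p* = 6.57e-05), and *Birc5* (survivin) rose from 0.0392 to 8.11 CPM in veins to 35.0 to 208 CPM in early AVFs (log2FC 5.86, SE 0.82, adjusted *p* = 7.08e-06, and 7.43 without contralateral vein 27). None of these 3 genes overlapped. *Cdkn1a* (p21), an inhibitor of the cell cycle, rose as well, from a median of 40.2 to 184 CPM (log2FC 2.19, SE 0.34, adjusted *p* = 2.43e-05), as 1 of 3 genes of p53 and growth arrest that rose of 14 tested. *Emp1*, a membrane protein induced in proliferating and injured tissue, rose from 59.6 to 187 CPM in veins to 395 to 759 CPM in early AVFs (log2FC 2.00, SE 0.20, adjusted *p* = 6.29e-08).

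Hormone, clock and stress genes gave smaller counts. Of 16 glucocorticoid and retinoid genes, 4 fell and 2 rose. *Aldh1a1*, which makes retinoic acid, fell from a median of 386 to 43.5 CPM (log2FC −3.22, SE 0.39, adjusted *p* = 8.28e-07), and *Hsd11b1*, which regenerates active glucocorticoid, from 257 to 28.3 CPM (log2FC −2.85, SE 0.38, adjusted *p* = 4e-06). Of 17 circadian clock genes, 2 fell: *Per3* by 2.17 in log2FC (SE 0.31, adjusted *p* = 9.03e-06) and *Cry2* by 2.05 (SE 0.32, adjusted *p* = 3.78e-05). Of 15 heat shock chaperones, 2 fell, including *Hspa1a*, from 30.4 to 144 CPM in veins to 3.74 to 20.8 CPM in early AVFs (log2FC −3.15, SE 0.44, adjusted *p* = 6.4e-06). Of 17 immediate early transcription factors, 2 rose and 1 fell, and the median was 0.09. Other genes with very small *p* that fell were *Gstm1*, a glutathione transferase (log2FC −3.63, SE 0.22, adjusted *p* = 1.04e-11), *Amigo2*, an adhesion protein (log2FC −5.38, SE 0.37, adjusted *p* = 1.1e-10), *Fmo2*, a flavin monooxygenase (log2FC −3.66, SE 0.28, adjusted *p* = 7.21e-10), *Lims2*, a focal adhesion adaptor (log2FC −2.67, SE 0.21, adjusted *p* = 8.12e-10), *Plpp3*, a lipid phosphatase (log2FC −2.70, SE 0.21, adjusted *p* = 8.33e-10), *Tinagl1*, a matrix protein of vessels (log2FC −2.78, SE 0.22, adjusted *p* = 1.4e-09), and *Id4*, a regulator of transcription factors (log2FC −4.74, SE 0.39, adjusted *p* = 2.16e-09). All 7 were without overlap, which was a condition of their choice.

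Several lists gave few or no calls in either direction. None of the 7 MHC class II genes, 16 fatty acid oxidation genes, 15 ribosome biogenesis genes and 6 epithelial genes was called by edgeR, and at an unadjusted *p* under 0.05 there were 1, 7, 2 and 0 of them. DESeq2 called 1 MHC class II gene and 1 fatty acid oxidation gene, and voom called none. Their median log2FCs included 0.38 for MHC class II, −0.49 for fatty acid oxidation and 0.25 for ribosome biogenesis. Of 7 genes each of T and natural killer cells and of B cells, 1 rose and 1 fell respectively, and of 14 cholesterol synthesis genes 1 fell. Of 14 basement membrane genes 1 fell, of 16 elastic fiber genes 3 fell and 1 rose, of 7 lymphatic endothelial genes 2 fell and 1 rose, of 16 antioxidant genes 4 rose and 1 fell, and of 16 genes of the unfolded protein response 1 rose. Among the remaining blood and muscle lists, of 5 dendritic cell genes 1 rose and 1 fell, and 1 gene fell in each of the lists of 7 mast cell, 7 erythroid and 4 cardiac muscle genes.

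**Figure D4:**
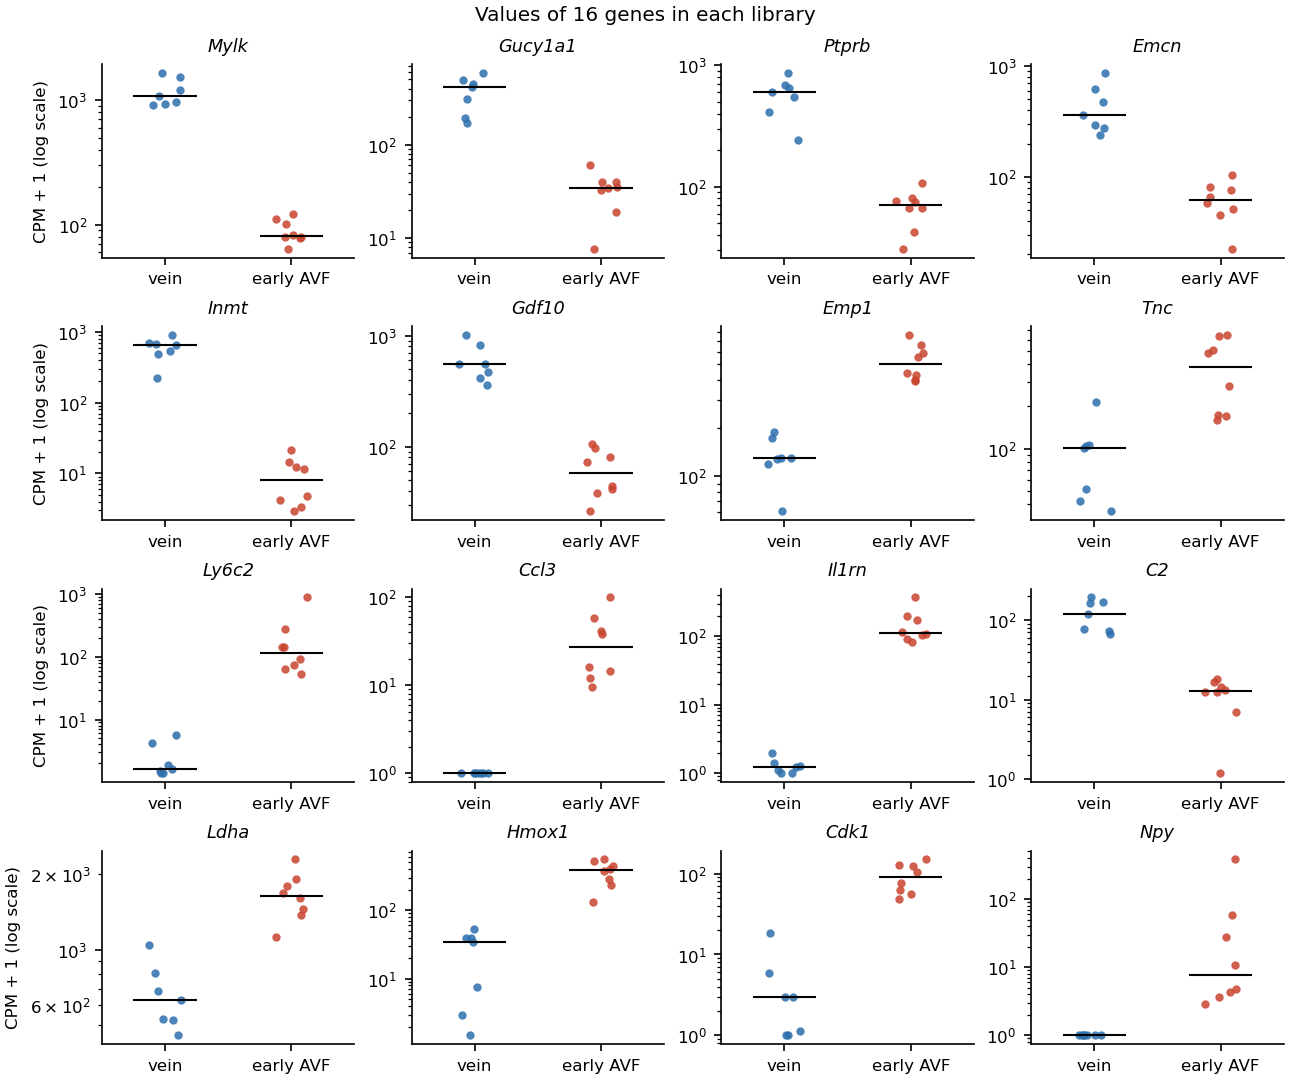
CPM plus 1 (log scale) of 16 genes in each of 7 contralateral veins (blue) and 8 early AVFs (red), with lines at the medians. The groups do not overlap in the plots of 15 genes, which for *Mylk*, *Ptprb*, *Emp1*, *Ccl3* and *Il1rn* was a condition of their choice. They overlap in that of *Tnc*, and *Ccl3* and *Npy* have no read in any vein.

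Transcripts of nerve, skeletal muscle and parathyroid were high in single early AVFs, whereas the cartilage sum lay above the veins in all 8, by a narrow margin. Of 11 sympathetic neuron genes 8 rose, of 13 skeletal muscle genes 10 rose, of 3 cartilage genes 3 rose, and of 3 thyroid and parathyroid genes none was called by edgeR, DESeq2 or voom, with 2 at an unadjusted *p* under 0.05 by edgeR. Without early AVFs 1, 7 and 10, 2 sympathetic and 3 skeletal muscle genes rose, and without early AVF 7 alone or contralateral vein 34 alone, 3 and 5 sympathetic genes rose. The cartilage sum was 0 to 16.89 CPM in veins and 17.02 to 46.16 CPM in early AVFs. Of the 3 cartilage genes tested, 1 lay above every vein in each early AVF. The other genes, *Acan* and *Col2a1*, had no read in any vein and fell to 0 CPM in the lowest early AVF. With 1 library left out in turn 2 to 3 cartilage genes rose, and 0 to 3 under the other settings. The skeletal muscle sum was 5095 CPM in early AVF 1 and 6103 CPM in early AVF 10, 16.97 to 660.1 CPM in the other 6 and 28.19 to 108.6 CPM in veins. The sympathetic sum was 4610 CPM in early AVF 1 and 3770 CPM in early AVF 7, and at most 307.6 CPM in the other 6, within the range of veins (61.03 to 341.1 CPM). Different members shifted when each of these libraries was left out. Without early AVF 1 the fitted fold change of *Chga* shifted, and without early AVF 7 those of *Th*, *Dbh* and *Npy*, among others. *Dbh* had an early AVF median of 0.214 CPM. The sum of early AVF 1 is therefore not read as nerve. *Acta1*, the skeletal muscle actin, lay at 0.035 to 30.9 CPM in veins and 0.509 to 2685 CPM in early AVFs (log2FC 6.91, SE 1.74, adjusted *p* = 0.00444), with a log2FC of 8.74 without contralateral vein 632 and 6.09 without early AVF 10. *Pth* (parathyroid hormone) reached 14040 CPM in early AVF 1 and did not pass the test (adjusted *p* = 0.0219). *Th* and *Dbh*, the enzymes of noradrenaline synthesis, reached 479 and 565 CPM in early AVF 7. Their calls (adjusted *p* = 0.00623 and 0.00318) were lost without that library, as was that of *Dbh* without contralateral vein 34 and that of *Th* without any 1 of contralateral veins 28, 31, 34, 35, 632 and 633. With 1 library left out in turn, the adjusted *p* ranged from 0.0052 to 0.173 for *Th* and from 0.00247 to 0.0905 for *Dbh*.

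**Figure D5:**
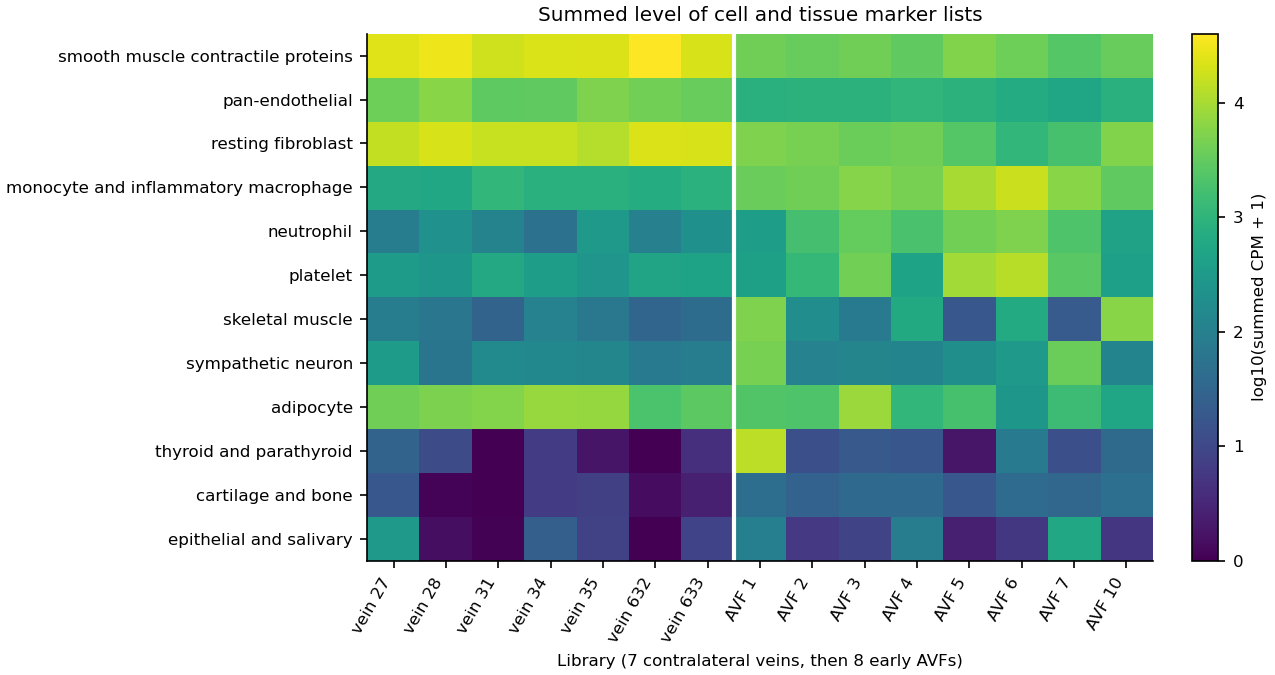
Summed CPM (plus 1, log10 color scale) of 12 marker lists in each library, with veins left and early AVFs right of the white line. Smooth muscle, endothelial and resting fibroblast lists are lower in all 8 early AVFs. The skeletal muscle, sympathetic and parathyroid lists are high in single libraries such as early AVFs 1, 7 and 10, and the sympathetic sum of early AVF 1 is not read as nerve.

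Some nerve-related transcripts rose more widely. *Npy*, the neuropeptide of sympathetic nerves, had no read in any vein and was present in all 8 early AVFs, at 1.93 to 381 CPM (median 6.72; at least 3423-fold higher, adjusted *p* = 8.96e-05), with the highest value in early AVF 7 (at least 841.6-fold higher without it). *Gal* (galanin, a peptide of injured nerves) lay at 0 to 0.0907 CPM in veins and 1.98 to 324 CPM in early AVFs (median 10.9; adjusted *p* = 1.04e-05). Both genes were thus above every vein in each early AVF. Of 5 genes of repair Schwann cells, 2 rose, including *Gfap*, at 0 to 0.0783 CPM in veins and 0 to 48.8 CPM in early AVFs (median 2.7; adjusted *p* = 0.000272). Of 10 myelin genes 1 rose. *Ucp1*, the uncoupling protein of brown fat, had no read in any vein and reached 255 CPM in early AVF 3, with a median of 2.6 CPM (at least 2438-fold higher, at least 729.6-fold without that library, adjusted *p* = 0.00141), and the adipocyte list as a whole had 1 gene higher and 1 lower of 13.

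Most of the largest fitted decreases rested on few veins: of the 10 named for size, 8 had no read in 3 or more veins. The exceptions were *Pappa2*, a protease of insulin-like growth factor binding proteins, and *Mlana*. *Pappa2* lay at 45.35 to 415.2 CPM in veins and 0 to 1.38 CPM in early AVFs (log2FC −8.20, SE 0.94, adjusted *p* = 3.72e-07), with a log2FC of −7.57 without contralateral vein 27. *Mlana*, a melanocyte antigen, lay at 0 to 55.8 CPM in veins (median 22.6) and at most 0.236 CPM in early AVFs (adjusted *p* = 2.24e-05). *Mrgprg*, a receptor of the Mas-related family, reached 161 CPM in contralateral vein 34 (adjusted *p* = 0.00334), and its call was lost without that vein (adjusted *p* = 0.01192, from 0.00186 to 0.01192 with 1 library left out in turn). Likewise *Ighv1-55*, an immunoglobulin heavy chain segment, reached 273 CPM in contralateral vein 28, and without it its adjusted *p* was 0.5858.

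Sex was considered because the groups were unbalanced. A test of the difference between the sexes in the change from vein to early AVF, by their labels, called 0 of 12673 genes at an adjusted *p* under 0.05 by edgeR, with 537 at an unadjusted *p* under 0.05 and a smallest adjusted *p* of 0.177. Only 2 veins were male, so the precision of this test was low. Without early AVFs 5 and 10, 1 gene was called: *Aspn* (asporin), with a difference of 5.38 between the log2FCs of the sexes (adjusted *p* = 0.00605). The female early AVFs were then 6 and 7, which had the lowest resting fibroblast sums (1101 and 1827 CPM). Sex and these libraries cannot be told apart for this gene.

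A single-cell library of contralateral veins and another of early AVFs, each a pool of vessels digested with enzymes, allowed the same genes to be set beside the bulk values. These pools came from other mice of both sexes, and the study gives a later mean harvest time for the single-cell early AVFs than for the bulk ones. Erythroid genes summed to 198500 CPM in the single-cell vein and 6218 CPM in the single-cell early AVF, which lowers the CPM of other genes in the vein. Counts of unique molecular identifiers (UMIs) were summed over all barcodes: 11563 barcodes with 40304049 UMIs (median 1893 per barcode) in the vein and 7074 barcodes with 113085652 UMIs (median 7505) in the early AVF, with 19 barcodes shared. With 1 library per group there was no test, and the intervals below cover counting error only. Of 12298 genes tested in bulk and with at least 20 UMIs, 13.8% were at least 2-fold higher in the early AVF library and 13.1% at least 2-fold lower. Of 753 genes that rose in bulk, 460 were at least 2-fold higher (61.1%) and 52 at least 2-fold lower, and of 802 that fell in bulk, 341 were at least 2-fold lower (42.5%) and 39 at least 2-fold higher.

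Smooth muscle genes differed between the bulk and single-cell libraries, which also differed in mice, harvest time and tissue digestion. The contractile list summed to 1288 CPM in the single-cell vein and 4408 CPM in the single-cell early AVF, with 11 members at least 2-fold higher and none lower, the opposite direction to the bulk libraries. *Acta2* was at 243.2 CPM (95% Poisson interval 238.4 to 248.0) in the vein and 1229 CPM (1222 to 1235) in the early AVF, and *Mylk* at 94.48 CPM (91.50 to 97.53) and 89.32 CPM (87.59 to 91.08). The 2 values of *Mylk* thus differed little, whereas its bulk levels did not overlap. Endothelial and fibroblast genes moved as in bulk: the pan-endothelial list went from 1152 to 205.9 CPM, the resting fibroblast list from 12340 to 2270 CPM, and the activated fibroblast list from 349.4 to 5413 CPM. *Inmt* went from 353.9 CPM (348.2 to 359.8) to 2.547 CPM (2.261 to 2.859) and *Il1rn* from 7.84 CPM (7.00 to 8.754) to 209 CPM (206.3 to 211.6). The sympathetic list was mixed, with sums of 891.3 CPM in the vein and 1284 CPM in the early AVF, 2 members at least 2-fold higher and 7 at least 2-fold lower. *Npy* was at 186.2 CPM (182.0 to 190.5) in the single-cell vein and 4.183 CPM (3.814 to 4.577) in the early AVF, whereas *Pth* had no UMI in the vein and 718.2 CPM (713.2 to 723.1) in the early AVF.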

How the data were processed

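RNA of 25 vessels was sequenced by an ultra-low-input poly(A) method, paired-end, and the authors deposited 1 table of raw gene counts per library, with 56980 gene identifiers. For these bulk counts, the aligner, counter and genome build were not given in any of the sources used here. The authors' single-cell files hold UMI counts per gene and barcode, filtered by them to cell barcodes, and no further filter or doublet caller was applied here since only sums over barcodes were used. Gene symbols came from the single-cell gene list (32210 identifiers) and from GENCODE M21 (19962), and 4808 identifiers had none.

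The members of the comparison and the gene lists were chosen with earlier results of these data known. Groups followed the labels. Genes with a mean of at least 100 normalized counts were kept (12673 of 37829 with any count), and all 25 libraries were fitted by group with edgeR 4.0.16 in R 4.3.3 (TMM scaling, quasi-likelihood F test, SE from log2 fold change and F). A gene was called at a Benjamini-Hochberg adjusted *p* under 0.01 and a log2 fold change of at least 1 in size. Adjustment was over all tested genes, never over a list alone. The estimated biological coefficient of variation was 0.843. Whether libraries of a group came from separate animals follows the study's methods, and *p*-values measure the spread between these libraries. The fit used 1 spread per gene for all 25 libraries, most of them AVFs. The veins were more variable than the early AVFs, so *p*-values and SEs may understate the spread among veins.

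Named genes were the 15 with the smallest *p* in each direction without overlap between groups, the 10 with the largest fold change in each direction, and up to 4 called members and the first 2 members of each of 64 lists. From these the text gives those with the clearest known role. *Atp5g1*, *Mylk4* and *Cavin4* stand for counts of 1, and some further list members (such as *Serping1* and *C1s1*) were chosen after their values were seen. Genes that the study names for this comparison were left out of the first 2 sets.

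Lists are described by counts and medians with no set test. Levels are CPM and differ in gene length, so they are not compared between genes. Bounds for genes without reads in all 7 veins used a floor of 3 counts over the 7 libraries. Floors and intervals cover counting error only, and reads are not independent molecules. Promoters were the 250 bases before each RefSeq start (GRCm38.p6), searched on both strands. Alternatives were other scaling and tests (DESeq2 1.42.0, limma 3.58.1), other filters, a sex term, each sex alone, and libraries left out, and the sets of libraries 28, 31, 34 and 632, 5 and 6, 5 and 10, and 1, 7 and 10 were chosen after seeing the data. The test was first tried on simulated counts. Figures were drawn with matplotlib 3.10.9 in Python 3.11.15.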

Additional observations from a re-analysis of the deposited data

Results flagged for a closer look

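Among 288 pairs of a named gene and a group, 37 had a library that lay apart from the rest of its group by Dixon's ratio on log2(CPM + 1). A library that alone holds reads in its group always passes this ratio. The share expected by chance is therefore not known, and 37 is not read as an excess. All values here are CPM, and no explanation was tested. The veins that lay apart most often were 27 (7 times), 632 (6 times) and 28 (5 times), and the early AVF that did so most often was 7 (5 times).

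Contralateral vein 27 was the highest vein for *Birc5* (8.107), *Cxcl3* (0.3955), *Lgr5* (0.3164), *Sirpb1a* (0.0791), *Tlr8* (0.435) and *Wif1* (0.1582), and the lowest for *Hsd11b1* (67.87). Contralateral vein 632 was the highest for *Gfap* (0.07833), *Mmp12* (25.34), *Nrg1* (1.097), *Rgs1* (0.07833) and *Tnf* (0.8225), and the lowest for *Emp1* (59.65). Contralateral vein 28 was the highest for *Cavin4* (0.06246), *Ighv1-55* (273.3) and *Pth* (10.81), and the lowest for *Mgl2* (6.496) and *Mrc1* (16.37). Contralateral vein 633 was the highest for *Arg2* (0.5863) and *Kif11* (2.276) and the lowest for *Pfkp* (234.0). Contralateral vein 34 was the highest for *Dbh* and *Gal* (0.09069 each) and the lowest for *Mlana* (0), and contralateral vein 35 the highest for *Ccl22* (0.2103) and *Osm* (1.507). Most of the vein values under 1 CPM are a few reads in a gene without reads in most other veins.

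Early AVF 7 was the highest early AVF for *Dbh* (565.4), *Th* (479.1), *Gucy1b1* (20.53) and *Ighv1-55* (0.4152), and the lowest for *Actg2* (27.55). Early AVF 6 was the highest for *Cdkn1a* (524.1) and the lowest for *C2* (0.19) and *Ccl11* (12.98). Early AVF 5 was the highest for *Serpinb2* (274.5) and the lowest for *Ephb4* (4.663), and early AVF 1 the highest for *Pth* (14040).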

How the results depend on the processing

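The 782 genes higher and 817 lower became 1243 and 1197 with DESeq2, 199 and 389 with limma's voom and sample weights, 2793 and 1010 with edgeR's own filter, 3031 and 907 with no filter, 284 and 381 with the 15 libraries fitted alone, and 1224 and 1296 at an adjusted *p* under 0.05. They were 763 and 848 with DESeq2 size factors, 225 and 143 in female mice, and 471 and 572 in male mice. Of the sets chosen after seeing the data, 1187 were higher without 4 veins, 283 higher and 177 lower in females without early AVF 10, 512 higher in males without early AVF 5, and 504 lower with a sex term and without early AVFs 5 and 10. Leaving out each library in turn gave 695 (without early AVF 6) to 933 (without contralateral vein 28) higher and 661 (without early AVF 5) to 968 (without contralateral vein 35) lower. The sex difference had 0 genes, or 1 without early AVFs 5 and 10. Of the 782 and 817 genes, 771 and 809 were shared with DESeq2 and 137 and 363 with voom.

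Of 136 named genes that were called, 66 lost the call with voom, 65 in females, 42 in males, 16 with the 15 libraries alone, 9 without 4 veins, and at most 5 when any 1 library was left out. Across 4962 values none changed direction while called. The contractile list kept 14 lower genes when any 1 library was left out and 9 to 14 under the other settings, and the monocyte list 14 to 16 and 5 to 17 higher genes. Other lists were less stable under those settings: the neutrophil, sympathetic and skeletal muscle lists fell to 0 higher genes with voom, as did the interleukin 1 list, chemokines to 3, glycolysis to 1, cell division and activated fibroblast genes to 2 each, the proteoglycan list to 0 lower genes in females, the vasoactive list to 0 in females without early AVF 10, resting fibroblast genes to 3 and pan-endothelial genes to 5. No paired analysis was possible because the compared groups share no replicate numbers. Missing reads in veins limit the 398 higher genes with a vein at 0 counts, whose fitted fold changes are not given. Sequencing depth alone does not describe this limit. Contralateral vein 28 had 20254173 counts and 11958 genes with a count, against 23676215 and 25141 in early AVF 10.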
